A study of Mus musculus with 9 samples.

Results

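Lymphoid cells, the T, NK and B cells that a sort for CD11b had carried along with microglia, were picked out of single-cell RNA-seq of adult mouse brain by the transcripts they held. A cell was taken as lymphoid where it had a unique molecular identifier (UMI, the tag that marks 1 captured transcript) in at least 2 of the T genes Cd3e, Cd3d and Trbc2, at least 2 of the NK genes Nkg7, Ncr1, Il2rb and Ccl5, or at least 2 of the B genes Cd79a, Cd79b and Ms4a1. It also had to hold at most 1 of the microglial genes P2ry12, Tmem119, Siglech and Gpr34, with S100a8 and S100a9, which mark neutrophils, under 1% of its UMIs. By this rule 141 of 30463 cells were lymphoid (0.463%), of which 127 were NK, 7 T and 7 B cells. The cells were thus chosen by their measured UMIs of these genes, whose levels are a description, and nothing is read from a test of them.

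The mice were 5-month-old female C57BL/6J animals, perfused before the brain without cerebellum was dissociated, and live CD11b+ cells were sorted. Ctrl mice (3 libraries of 1 brain each) were not treated. D0 mice (3 libraries of 2 pooled brains) had eaten PLX5622, an inhibitor of the receptor CSF1R, at 1200 mg/kg of diet for 14 days, and D2 mice (3 libraries of 2 pooled brains) then returned to control diet for 2 days. The library was taken as the replicate, and D2-3, which the study left out, was described throughout but entered no main test.

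T, NK and B cells are the lymphocytes of blood and lymphoid organs, and few of them are found in the healthy brain, mostly at its borders and vessels. NK cells kill target cells with perforin and granzymes and belong, with group 1 innate lymphoid cells, to a family that shares Ncr1, Il2rb and Nkg7. T and B cells carry antigen receptors that signal through the CD3 and CD79 chains. PLX5622 acts on CSF1R, which microglia need to survive and which lymphocytes do not normally express.

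Depth differed between libraries, from 20257894 UMIs in D2-2 to 61230741 in D0-2. D2-3 stood apart, with neutrophils making up 16.4% of its kept cells against 0.328% to 10.6% in the other 8 libraries, and 37.3% of its barcodes above the upper limit of 20000 UMIs. One NK barcode of Ctrl-2 also stood apart, since 474 of its 12349 UMIs came from haemoglobin genes, and it held 50 UMIs of Cldn5, a tight-junction gene of vessel walls. No barcode belonged to members of more than 1 library, and 98 kept barcodes recurred across all pairs of libraries, at most 7 in a pair.

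The rule separated cells clearly for NK genes and less so for single B genes. Of the 4505 cells that passed the microglial and neutrophil limits, 96 held all 4 NK genes, 28 held 3 and 10 held 2, while 160 held just 1 and stayed outside. The T genes gave 5 cells with all 3, 2 with 2 and 69 with 1, and the B genes 5, 2 and 226. Cd79b alone was found in 22.3% of the 24442 cells that held at least 2 microglial genes and were under the neutrophil limit (microglia-marked cells below), so a single B gene carried little information. Another 13 cells met the NK rule, 1 the T rule and 5 the B rule but held 2 or more microglial genes, and 1 of those 13 was also above the neutrophil limit. Among the NK cells 95 of 127 had all 4 genes, and 7 had Nkg7 and Ccl5 only. The complement genes C1qa, C1qb and C1qc, abundant in microglia, made up a median of 0% of member UMIs and at most 0.295%, against a median of 2.37% in microglia-marked cells.

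NK cells were the main lymphoid lineage among these sorted cells at every time point. This make-up is that of live CD11b+ cells, and how far the sort set it was not tested. The NK share of the sorted cells varied as much between libraries of 1 condition as between conditions. In Ctrl-1, Ctrl-2 and Ctrl-3, 2 of 4262, 17 of 2577 and 3 of 3699 kept cells were NK cells. In D0-1, D0-2 and D0-3 there were 8 of 4147, 26 of 4980 and 22 of 2637. In D2-1, D2-2 and D2-3 there were 15 of 3935, 16 of 2418 and 18 of 1808. Ctrl-2 lay within the range of the treated libraries, so the groups overlapped, whereas Ctrl-1 and Ctrl-3 lay below all of them. The share was 0.263% ± 0.344 (SD, n = 3) in Ctrl, 0.516% ± 0.321 (SD, n = 3) in D0 and 0.521% ± 0.198 (SD, n = 2) in D2. Neither D0 (exact permutation test, two-sided, p = 0.4) nor D2 (p = 0.4, exact permutation test) differed from Ctrl by more than the spread between libraries. With these numbers of libraries the test cannot go below 0.1 for D0 and 0.2 for D2. A share of sorted cells moves with the number of microglia as well as with the number of lymphocytes, and the files do not hold cells per brain.

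**Figure D1:**
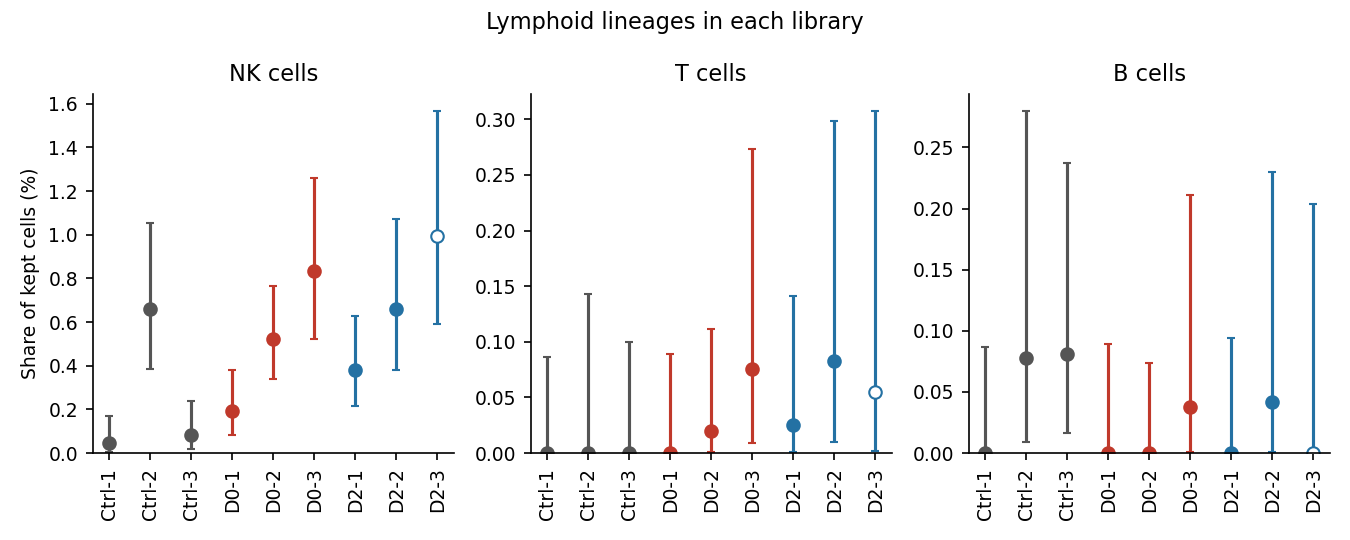
Share of kept cells (percent) that were NK, T or B cells in each of the 9 libraries, with 95% Clopper-Pearson intervals that cover counting error only; grey is Ctrl, red D0 and blue D2, and the open point is D2-3. Ctrl-2, at 0.660% NK cells, lies among the D0 and D2 libraries, and no Ctrl library held a T cell.

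T cells were few in every library. None was seen among the 10538 kept Ctrl cells, which allows a share of up to 0.0285%. D0-1, D0-2 and D0-3 held 0, 1 and 2 T cells, and D2-1, D2-2 and D2-3 held 1, 2 and 1. The share of T cells was 0.0320% ± 0.0393 (SD, n = 3) in D0 and 0.0541% ± 0.0405 (SD, n = 2) in D2. The exact permutation test gave p = 0.4 for D0 and p = 0.2, the smallest it can give, for D2, where the groups did not overlap. With D2-3 included the difference of 0.0541 percentage points became 0.0545 (exact permutation p = 0.1, the smallest possible). It became 0.0139 in cells thinned to 1000 UMIs and 0.0414 when 3 UMIs of the T genes were required, with overlap in both (exact permutation p = 0.8 and 0.8). Leaving out D2 replicate 1 or 2 gave 0.0827 or 0.0254, and allowing none of the 4 microglial genes gave 0.0334. The T cells of D2-2 counted above include 1 that goes against its T label, described below.

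B cells were as few, and most came from controls. Ctrl-1, Ctrl-2 and Ctrl-3 held 0, 2 and 3, D0-1, D0-2 and D0-3 held 0, 0 and 1, and D2-1, D2-2 and D2-3 held 0, 1 and 0. The B share was 0.0529% ± 0.0458 (SD, n = 3) in Ctrl, 0.0126% ± 0.0219 (SD, n = 3) in D0 and 0.0207% ± 0.0292 (SD, n = 2) in D2, and the groups overlapped (exact permutation p = 0.4 and 0.6). When the cells per lineage were instead tested with edgeR, the method the study used for its clusters, no lineage passed either. The lowest adjusted p over both comparisons in that edgeR test was 0.241, for T cells in D2. For T cells in D2 it was 0.0742 with D2-3 included and 0.0595 with the replicate number as a block.

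The make-up of the lymphoid cells varied widely between libraries. NK cells made up 79.8% ± 26.4 (SD, n = 3) of lymphoid cells in Ctrl, 94.8% ± 6.14 (SD, n = 3) in D0 and 89.0% ± 6.75 (SD, n = 2) in D2, with exact permutation p = 0.7 and p = 1. T cells made up none of the Ctrl lymphoid cells and 8.39% ± 3.02 (SD, n = 2) of those in D2, without overlap, at the smallest p that the exact permutation test can give (0.2, or 0.1 with D2-3 included at a difference of 7.35 percentage points). Ctrl-3, with 3 B cells among its 6 lymphoid cells, set the low Ctrl mean of NK cells. Without Ctrl-3 the NK difference fell from 14.9 to 0.0286 percentage points in D0 and turned from 9.16 to -5.76 in D2. Neutrophils, also carried along in this sort, numbered 14, 90 and 34 in the Ctrl libraries, 133, 528 and 173 in D0 and 86, 162 and 296 in D2. The log2 of lymphoid cells per neutrophil was -2.52 ± 0.28 (SD, n = 3) in Ctrl, -3.71 ± 0.81 (SD, n = 3) in D0 and -2.76 ± 0.47 (SD, n = 2) in D2 (exact permutation p = 0.2 and 0.6). Lymphoid cells per neutrophil were 0.143, 0.211 and 0.176 in Ctrl-1, Ctrl-2 and Ctrl-3 and 0.0602, 0.0511 and 0.145 in D0-1, D0-2 and D0-3. The ratio was thus lower in D0 for each replicate number, which was not tested as a block for it.

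Outside the genes of the rule, NK cells held the transcripts of granzymes, perforin and NK receptors. Levels below are counts per 1000000 UMIs (CPM), from UMIs summed over the NK cells of a library or of all 9. Each transcript is counted once at its 3′ end, so levels were not divided by gene length. Over all 127 cells, which had a median of 4684 UMIs, granzyme A (Gzma) reached 11782 CPM, the chemokine Ccl4 6676, granzyme B (Gzmb) 3553 and perforin (Prf1) 1547. The receptor genes Klrd1 and Klrk1 were at 1215 and 967 CPM and had a UMI in 121 and 111 of the 127 cells. Of the genes that chose the cells, the chemokine Ccl5 was at 18535 CPM, the granule protein Nkg7 at 4063 and the receptor Ncr1 at 1007. Fcer1g and Tyrobp, the adaptors through which NK receptors signal, stood at 3630 and 3377 CPM. Of the 16 NK identity genes listed, 15 had 20 CPM or more and Ncam1, which mouse NK cells lack, was at 0.

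The genes that set NK cells most apart from the T and B members, outside the rule, were Gzmc, Xcl1, Klra8, Hbb-bs, Klrc1, Cd7, Klra3, Vps37b, Klrc2, Fgl2, Ccl4 and Ccl3. The granzyme Gzmc had 1242 CPM in NK cells and no UMI in T or B cells, and Xcl1, a chemokine that draws dendritic cells, 2263 CPM against 53.1 in T cells. Klra8, which encodes the activating receptor Ly49H, had 501 CPM in 54 cells, though reads of the Klra family, whose genes are much alike, may be split between them. Hbb-bs, a haemoglobin gene, came from the single Ctrl-2 barcode described above.

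Markers of other cells were scarce in the NK cells, with exceptions shared by NK cells themselves. Cd4, Cd8a and Cd8b1 were at 0. So were Cd3e, Cd79a and Ms4a1, but those are genes of the rule, which put cells with 2 T genes among the T cells. By contrast, the T-cell receptor chains Trbc1 and Trbc2, whose unrearranged transcripts NK cells also make and which are so alike that reads may be split between them, had 338 and 313 CPM. The 20 T identity genes summed to 3096 CPM in NK cells and 8127 in T cells, led in NK cells by Ms4a4b at 1136 CPM. The neutrophil list summed to 109 CPM with Ly6g at 0, and the 7 genes of border-associated macrophages to 6.32 CPM with Mrc1, Pf4 and Lyve1 at 0. The list of dendritic cells summed to 158 CPM, nearly all of it Itgax at 155, and Flt3 was at 0. The plasmacytoid dendritic list (901 CPM) was led by Irf8 at 754 CPM, and the monocyte list (782 CPM) by Ly6c2 at 431 and Ccr2 at 291, genes that NK cells also express. Of the group 2 innate lymphoid genes, Il1rl1, Areg, Il5 and Il13 were at 0. The 12 microglial genes outside the rule summed to 1086 CPM, led by the widely expressed Cst3 at 541. Csf1r had 31.6 CPM in NK cells, 53.1 in T cells, 232 in B cells and 2495 in microglia-marked cells. Kit, a related receptor kinase, had 1 UMI in NK cells. Itgam, which encodes the sorted protein CD11b, had 158 CPM in NK cells against 442 in neutrophils and 435 in microglia-marked cells, and 61 of 127 NK cells held a UMI of it.

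Among the NK cells, transcripts of tissue residency and of egress were seldom found together. Itga1 (the integrin CD49a) and Cxcr6 are known from lymphocytes that stay in tissue, and S1pr5 from NK cells that leave it for the blood. The NK rule does not tell NK cells from other group 1 innate lymphoid cells. A UMI of Itga1 or Cxcr6 without S1pr5 was found in 43 cells, S1pr5 without the other genes in 36, both in 3 and none in 45. This split was chosen after the values had been seen and was used for description only. It also moved with depth, as cells with Itga1 or Cxcr6 had a median of 6295.5 UMIs, those with S1pr5 4627 and the rest 3894.

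In the 43 cells with Itga1 or Cxcr6, the granzyme Gzmc stood at 2977 CPM and was found in 30 cells, against 5.56 CPM and 1 cell in the 36 cells with S1pr5 and no UMI in the 45 with none of the 3 genes. Several other genes were higher beside Itga1 or Cxcr6 as well. Cd7, a surface protein of T and NK cells, had 2681, 178 and 147 CPM in the 3 sets, and the cytokine gene Ltb had 494, 11.1 and 18.3. Xcl1 had 4601, 606 and 501, the death ligand Tnfsf10 209, 0 and 6.11, the signalling regulator Rgs1 2088, 495 and 916, and the chemokine receptor Ccr2 453, 161 and 183. Gzmb was abundant in all sets, at 5191, 2217 and 2528 CPM.

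The cells with S1pr5, and those with none of the 3 genes, held more of the transcripts known from circulating NK cells. Gzma had 1947 CPM in the cells with Itga1 or Cxcr6, 20918 in those with S1pr5 and 17973 in the rest. Prf1 had 662, 2162 and 2449 CPM, and Klf2, a factor that keeps lymphocytes able to leave tissue, 95.1, 1534 and 1472. The transcription factor Zeb2 had 38.0, 739 and 666 CPM, Klrg1 30.4, 406 and 263 and Itga2 (the integrin CD49b) 7.61, 283 and 226. Eomes, a factor of conventional NK cells, was lower but not absent beside Itga1 or Cxcr6, at 76.1 CPM against 144 and 232, while its relative Tbx21 had 129, 167 and 244. The NK receptor Klrb1c was found in 39 of 43, 35 of 36 and 38 of 45 cells. Itga2 was found in 1, 22 and 25 of them and Eomes in 10, 17 and 25. Whether the 43 cells are NK cells or other group 1 innate lymphoid cells was not tested. Cd3g had 243 CPM in 9 of the 43 cells, where Cd3e was at 0, and was found in 1 of the 36 and none of the 45.

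**Figure D2:**
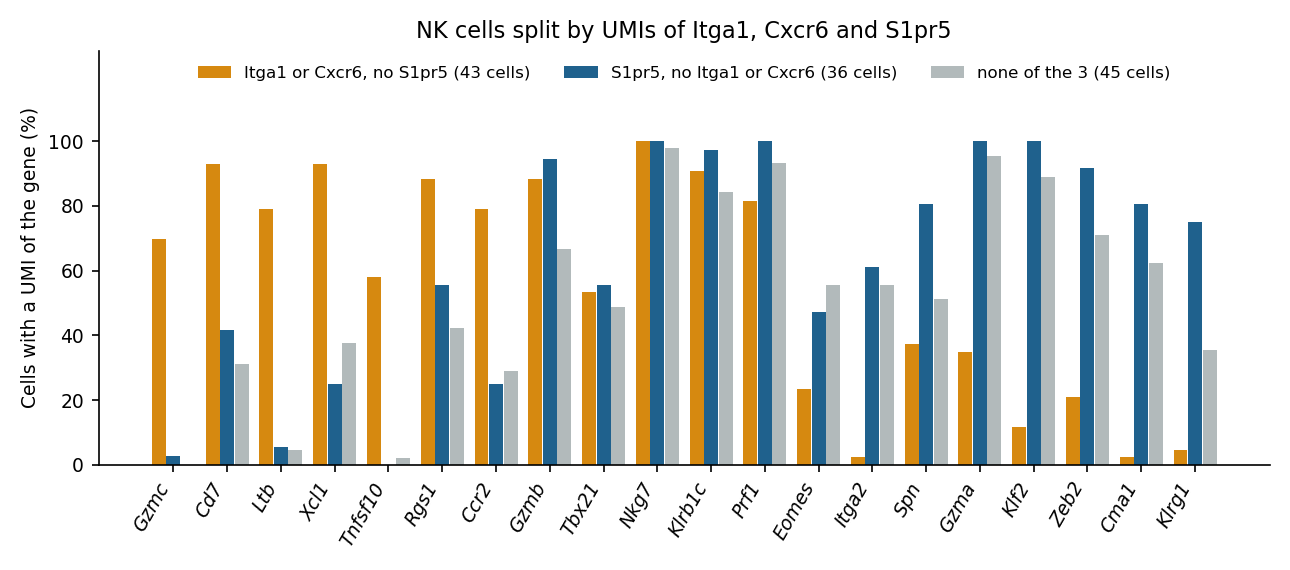
Share of NK cells (percent) with a UMI of each gene in 43 cells with Itga1 or Cxcr6 and no S1pr5, 36 cells with S1pr5 and neither other gene, and 45 cells with none of the 3. Gzmc, Ltb and Tnfsf10 stand high only beside Itga1 or Cxcr6 (69.8%, 79.1% and 58.1% of cells), whereas Gzma and Klf2 were in all 36 cells with S1pr5.

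The share of NK cells with these genes turned on 1 control library. Itga1 or Cxcr6 was found in 1 of 2, 1 of 17 and 1 of 3 NK cells of Ctrl-1, Ctrl-2 and Ctrl-3, the Ctrl-2 cell being the barcode with haemoglobin. It was found in 3 of 8, 11 of 26 and 9 of 22 cells of D0-1, D0-2 and D0-3, and in 8 of 15, 5 of 16 and 7 of 18 cells of D2-1, D2-2 and D2-3. Pooled over libraries, these were 13.6% of Ctrl NK cells (95% Clopper-Pearson interval 2.91 to 34.9), 41.1% of D0 cells (28.1 to 55.0) and 40.8% of D2 cells (26.997 to 55.8). These intervals cover counting error only, and cells are not replicates of a condition. Without Ctrl-2 the Ctrl share was 2 of 5 cells (40%), so the low pooled value came from that library. S1pr5 was found in 11 of 22 Ctrl, 17 of 56 D0 and 11 of 49 D2 cells. Of those 11 Ctrl cells 10 were in Ctrl-2, and without it the share was 1 of 5 (20%), below both treated groups. In cells thinned to 2000 UMIs, leaving out 0, 6 and 4 shallower cells of Ctrl, D0 and D2, Itga1 or Cxcr6 was in 9.09%, 28% and 33.3% of cells and S1pr5 in 40.9%, 18% and 6.67%. In microglia-marked cells, which should lack these genes and had a median of 7087 UMIs, Itga1 was found in 0.380%, Cxcr6 in 0.0736% and S1pr5 in 0.0859% of cells.

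To ask which genes differed between conditions within NK cells, UMIs were summed over the NK cells of each of the 8 libraries and tested with edgeR. This fit was added after the cells had been counted, since libraries of at least 10 NK cells, as first planned, left Ctrl-2 alone among the controls. Ctrl-1 and Ctrl-3 enter it with 2 and 3 cells and 10997 and 16624 UMIs. In D0, 7 of 1533 genes tested were higher than in Ctrl (0.457%) and 2 were lower (0.13%), together 0.587% of the genes, at an adjusted p under 0.05. In D2, 6 were higher (0.391%) and none was lower, while 109 genes had an unadjusted p under 0.05 in either direction by edgeR and DESeq2 called 3 higher and 1 lower. Both comparisons use the same Ctrl libraries. Gzmc, Itga1 and Ltb passed in both, though with the replicate number as a block Itga1 and Ltb missed the threshold in D0 (edgeR adjusted p = 0.0638 and 0.0627). A further 4 genes rose in D0 (S100a4, S100a6, Cd7 and Padi2) and 3 in D2 (Fos, Top2a and Ly6e). Of these, S100a4 had 1449, 77.8 and 140 CPM in the cells with Itga1 or Cxcr6, with S1pr5 and with none of the 3. S100a6 had 3438, 1450.5 and 1160, Cd7 2681, 178 and 147, Padi2 262, 100 and 104 and Ly6e 1080, 106 and 226. Fos, at 376, 161 and 281, differed less, and Top2a, at 152, 189 and 0, was not highest there. Whether these calls follow the share of cells with Itga1 or Cxcr6 in each library was not tested.

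Gzmc, a granzyme gene at chr14:56231441-56234656 (minus strand, GRCm38), was nearly confined to the treated libraries. Its level was 0, 11.1 and 0 CPM in Ctrl-1, Ctrl-2 and Ctrl-3, 666, 3010 and 594 in D0-1, D0-2 and D0-3, 1717 and 3334 in D2-1 and D2-2, and 302 in D2-3. Every treated library lay above every Ctrl library, with D0-2 and D2-2 the highest. A count of 0 allows up to 273 CPM in Ctrl-1 and 180 in Ctrl-3 (3 counts in each NK sum, counting error only). The log2 fold was 7.19 ± 1.02 (SE) in D0 and 7.95 ± 1.02 in D2, with adjusted p of 0.000805 and 0.000156 in edgeR. Since Ctrl held 1 UMI of 117351, the summed ratio carries a wide counting interval, at 180 (95% interval 32.1 to 7120) for D0 and 283 (50.5 to 11217) for D2. The UMIs came from 18 of 56 D0 cells and 13 of 49 D2 cells (D2-3 included), and all of these 31 cells also held Itga1 or Cxcr6. In cells thinned to 2000 UMIs, 10 of 17 D0 and 8 of 10 D2 cells with Gzmc did. The 1 Ctrl cell with Gzmc, of 22, held neither.

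Itga1, at chr13:114953096-115101964 (minus strand), was at 0, 22.3 and 0 CPM in the Ctrl libraries, 208, 170 and 187 in D0, 216 and 219 in D2-1 and D2-2, and 234 in D2-3. The treated libraries were close together and above Ctrl-2, whose 2 UMIs came from the haemoglobin-rich barcode. The 0 of Ctrl-1, which allows up to 273 CPM, does not set it apart from the treated libraries at this depth. That of Ctrl-3, which allows up to 180 CPM, does not set it apart from D0-2 but lies below the other treated libraries. The log2 fold was 3.32 ± 0.69 (SE) in D0 and 3.57 ± 0.71 in D2 (edgeR adjusted p = 0.0406 and 0.0169). Its summed ratio to the 2 Ctrl UMIs was 10.7 (2.81 to 90.6) in D0 and 12.8 (3.24 to 110) in D2.

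Ltb, a cytokine gene of the TNF family at chr17:35194439-35196320 (plus strand), had 0, 11.1 and 120 CPM in Ctrl, 125, 283 and 304 in D0, 254 and 370 in D2-1 and D2-2, and 224 in D2-3. Ctrl-3 came close to D0-1. The 0 of Ctrl-1, which allows up to 273 CPM, does not set it apart from D0-1, D2-1 or D2-3 at this depth, while D0-2, D0-3 and D2-2 lay above that limit. The log2 fold was 3.29 ± 0.70 (SE) in D0 and 3.48 ± 0.73 in D2 (edgeR adjusted p = 0.0406 and 0.0233). Against the 3 Ctrl UMIs the summed ratio was 10.96 (3.61 to 54.3) and 11.9 (3.804 to 60.04).

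The promoters of these 3 genes, the ones called in both comparisons, are shown from 250 bases before to 50 after the start (RefSeq, GRCm38.p6), read along the gene. Capitals mark matches to any of 3 motifs of factors known in NK cells, searched on both strands, which were T-box GGTGTGA, RUNX TGTGGT and AP-1 TGANTCA.
Gzmc, chr14:56234608-56234907, minus strand: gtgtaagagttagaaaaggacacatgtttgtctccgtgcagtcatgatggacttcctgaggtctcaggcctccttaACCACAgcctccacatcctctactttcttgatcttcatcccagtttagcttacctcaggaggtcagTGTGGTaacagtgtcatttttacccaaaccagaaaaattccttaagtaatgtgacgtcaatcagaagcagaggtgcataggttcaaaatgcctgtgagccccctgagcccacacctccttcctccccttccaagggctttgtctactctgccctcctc
Itga1, chr13:115101915-115102214, minus strand: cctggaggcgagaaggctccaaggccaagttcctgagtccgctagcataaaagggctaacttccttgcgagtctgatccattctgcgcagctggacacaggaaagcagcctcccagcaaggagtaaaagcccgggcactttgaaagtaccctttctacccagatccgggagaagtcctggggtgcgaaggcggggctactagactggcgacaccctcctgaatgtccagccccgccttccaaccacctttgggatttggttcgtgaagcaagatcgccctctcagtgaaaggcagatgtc
Ltb, chr17:35194257-35194556, plus strand: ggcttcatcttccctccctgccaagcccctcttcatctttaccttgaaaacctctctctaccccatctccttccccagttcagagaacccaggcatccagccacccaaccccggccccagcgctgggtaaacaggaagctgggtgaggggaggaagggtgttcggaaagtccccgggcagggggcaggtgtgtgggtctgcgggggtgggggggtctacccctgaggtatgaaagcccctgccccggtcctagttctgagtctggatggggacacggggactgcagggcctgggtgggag
The Gzmc promoter held 2 RUNX matches, at bases 77 and 143 of the window, and the other promoters held no match to any motif. Of 27025 mouse promoters of the same length, 16.9% held the RUNX letters, 3.96% the T-box letters and 7.93% the AP-1 letters, so such a match is common.

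Of the genes called in D0 alone, the calcium-binding proteins S100a6 and S100a4, Cd7 and the enzyme Padi2 had values in D2 that did not pass. S100a6 had 546, 869 and 541 CPM in Ctrl, 2329, 3217 and 2620 in D0 and 2391 and 1280 in D2-1 and D2-2, with log2 folds of 2.00 ± 0.38 (SE, edgeR adjusted p = 0.0227) and 1.44 ± 0.41 (adjusted p = 0.141). S100a4 rose from 90.9, 33.4 and 481 CPM to 582, 840 and 1147 in D0 (log2 fold 2.81, edgeR adjusted p = 0.0447). In D2-1 and D2-2 it had 801 and 539 CPM (D2 log2 fold 2.41, edgeR adjusted p = 0.141). Cd7 rose from 0, 178 and 602 CPM to 666, 1717 and 1818 in D0 (log2 fold 2.59, edgeR adjusted p = 0.0447). In D2-1 and D2-2 it had 1539 and 1010 CPM (D2 log2 fold 2.40, edgeR adjusted p = 0.0960). With the replicate number as a block, S100a4 and Cd7 passed in D2 as well (edgeR adjusted p = 0.0286 and 0.00953). Padi2 rose from 90.9, 33.4 and 60.2 CPM to 166, 264 and 242 in D0 (log2 fold 2.45, edgeR adjusted p = 0.0481). In each of these genes the lowest D0 library lay above the highest Ctrl library.

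The genes called in D2 alone were Fos, Ly6e and Top2a. Fos, an immediate early gene that dissociation of tissue can also raise, had 0, 66.9 and 0 CPM in Ctrl, 83.2, 274 and 290 in D0, 521 and 488 in D2-1 and D2-2 and 409 in D2-3 (D2 log2 fold 3.34 ± 0.60 SE, edgeR adjusted p = 0.0114). Ly6e, a surface protein that interferon can raise, had 273, 212 and 60.2 CPM in Ctrl and 928 and 1010 in D2-1 and D2-2 (log2 fold 2.38 ± 0.47 SE, adjusted p = 0.0162), but 409 in D2-3. Top2a, a topoisomerase of dividing cells, had 0, 22.3 and 0 CPM in Ctrl, 0, 0 and 41.5 in D0 and 687 and 202 in D2-1 and D2-2 (log2 fold 4.65 ± 0.87 SE, adjusted p = 0.0129). Its D2 level rested on 4 cells, 3 in D2-1 and 1 in D2-2, and D2-3 had none of it. By cells, 4 of 49 in D2 (D2-3 included) and 2 of 22 in Ctrl held a UMI of Top2a. Whether D0 and D2 differed from each other was not tested.

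Bsg, a membrane glycoprotein of vessel walls and activated leukocytes, and the mitochondrial gene mt-Nd3 fell in D0. Bsg had 364, 1872 and 361 CPM in Ctrl and 208, 264 and 228 in D0 (log2 fold -2.13 ± 0.48 SE, edgeR adjusted p = 0.0447). Of its 168 UMIs in Ctrl-2, 142 came from the haemoglobin-rich barcode. The endothelial markers of the list summed to 1772 CPM in Ctrl-2 and to between 0 and 364 in the other libraries, with Itm2a the most abundant. mt-Nd3 had 182, 513 and 241 CPM in Ctrl and 83.2, 56.6 and 145 in D0 (log2 fold -1.92 ± 0.44 SE, adjusted p = 0.0447). Without that barcode neither passed in edgeR, with log2 folds of -0.46 for Bsg and -1.57 for mt-Nd3 (adjusted p = 0.995 and 0.213). Ltb, Cd7, S100a4 and Padi2 also missed the threshold in D0 (adjusted p = 0.0531, 0.0531, 0.0624 and 0.0937), but their log2 folds of 3.18, 2.55, 2.73 and 2.33 had hardly moved. The 4 genes then called in D0 were Gzmc, Itga1, S100a6 and Ly6e, and in D2 the same 6 genes were called.

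**Figure D3:**
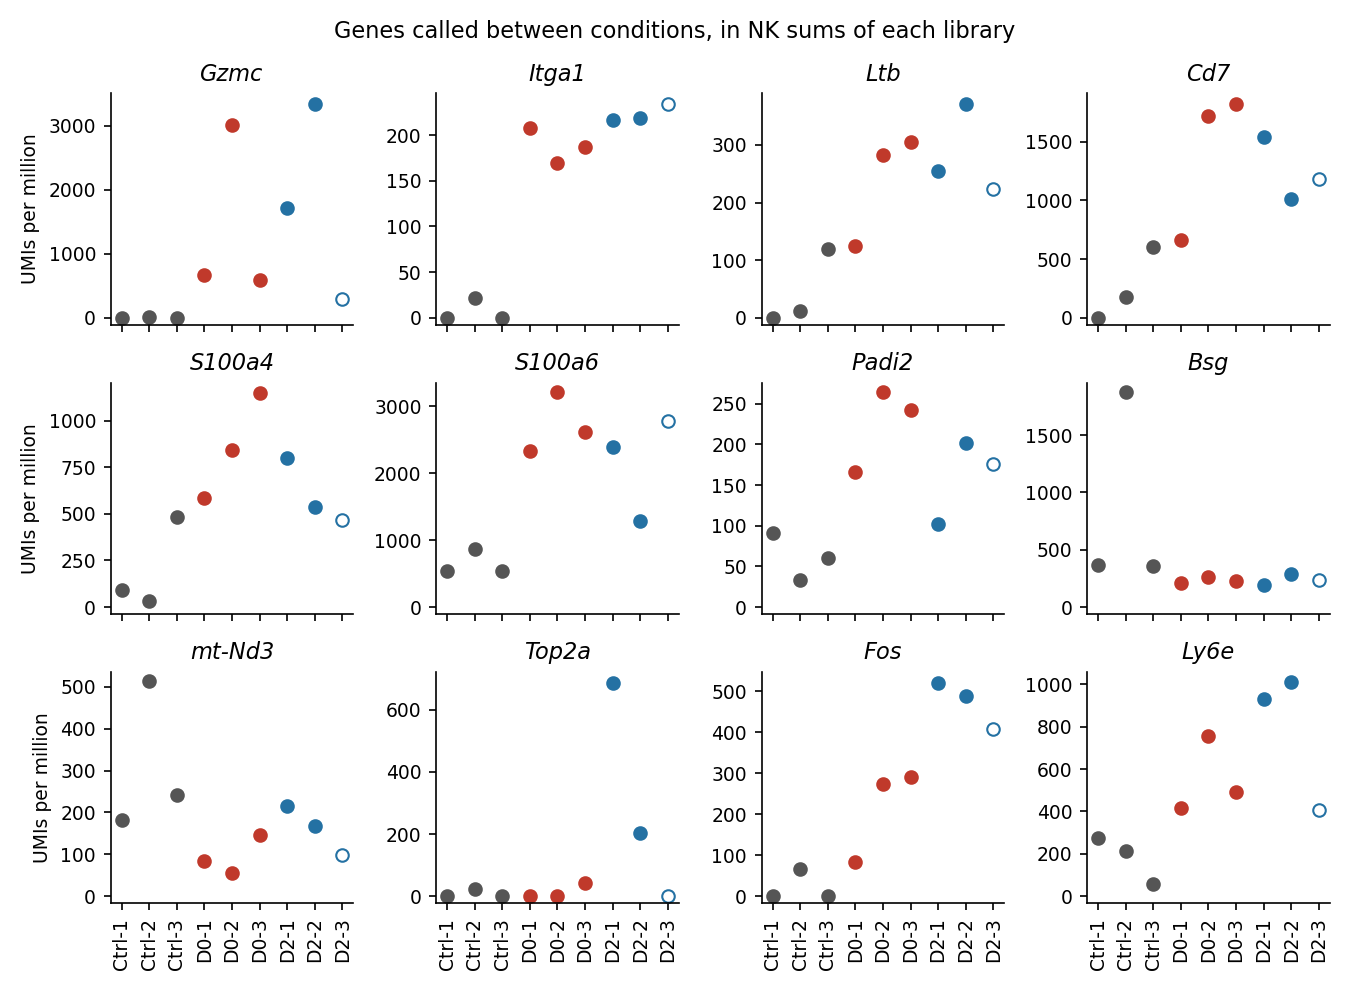
Level (CPM) of the 12 genes called in D0 or D2 in the NK sums of each library; grey is Ctrl, red D0, blue D2 and the open point D2-3, and each axis has its own scale. Gzmc lies at 0 to 11.1 in Ctrl and at 302 to 3334 in the treated libraries, and Bsg is high in Ctrl-2 alone.

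These calls rested heavily on Ctrl-2, which held 17 of the 22 Ctrl NK cells. Without it edgeR called no gene in D0 or D2, with 83 and 82 genes at an unadjusted p under 0.05, and the Gzmc adjusted p was 0.287 and 0.104. Both remaining Ctrl libraries were at 0 for Gzmc, Itga1, Fos and Top2a, so no fold is given for these. Of the others, S100a6 and Cd7 in D0 and Ly6e in D2 had log2 folds of 2.40, 2.13 and 2.78 without Ctrl-2. Bsg, mt-Nd3, S100a4 and Padi2 in D0 had -0.52, -0.99, 1.55 and 1.77. Ltb had 1.94 in D0 and 2.14 in D2. With the version of Cell Ranger as a term no gene was called either (162 and 139 at an unadjusted p under 0.05), and the Gzmc adjusted p was 0.203 and 0.131. That fit sets D0, D2-1 and D2-2 against Ctrl-1, which was at 0 for Gzmc, Itga1, Ltb, Cd7, Fos and Top2a, so no fold is given for these. Among the others, S100a6, S100a4 and Padi2 in D0 and Ly6e in D2 had log2 folds of 2.58, 3.54, 1.65 and 2.09 in it. Bsg and mt-Nd3 had -0.33 and -0.54 in D0. Ctrl-2 and Ctrl-3 were processed with another version than Ctrl-1, all D0 libraries, D2-1 and D2-2. With the replicate number as a block, edgeR called 4 genes in D0 (Gzmc, Cd7, S100a4 and S100a6) and 12 in D2, which were the 6 called without it and Rgs1, Cxcr6, Cd7, S100a4, Cd3g and Pclaf.

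By group, the lists held few called genes, as did all genes tested (0.457% higher in D0 and 0.391% in D2). Of the 7 tissue residency genes, 4 were tested and 1 of them, Itga1, rose in each comparison. The median log2 fold of the 4 was 2.14 in D0 and 2.55 in D2 against 0.02 and 0.03 over all 1533 genes. Itga1 held 2 Ctrl UMIs and Cxcr6 4, too few to be tested without the treated libraries, so nothing is read from these medians. The other 3, Rgs1, Cxcr6 and Cd69, did not pass, but with the replicate number as a block Rgs1 and Cxcr6 passed in D2 (edgeR adjusted p = 0.00455 and 0.0201). Cxcr6 had 182, 0 and 120 CPM in Ctrl, 83.2, 226 and 353 in D0 and 114 and 674 in D2-1 and D2-2, which overlapped (edgeR adjusted p = 0.564 and 0.163). Of the 6 egress and homing genes 3 were tested and none was called, with medians of -0.58 and -0.65, led by Klf2 at 864 CPM over all NK cells.

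Lists of NK genes held no called gene, which at 0.587% and 0.391% of all genes called says little of lists this short. Gzmc, the granzyme gene called in both comparisons, was on none of these lists. None of 14 NK identity genes tested passed (median log2 fold -0.10 in D0 and -0.61 in D2), nor did any of 8 cytotoxic effectors (0.16 and -0.04), 6 chemokines and receptors (0.30 and 0.12), 4 ITAM signalling chains (0.54 and 0.23) or 4 genes of MHC class I (0.09 and 0.11). Eomes had 364, 212 and 120 CPM in Ctrl, 83.2, 113 and 111 in D0 and 114 and 33.7 in D2-1 and D2-2, without overlap, at edgeR adjusted p of 0.949 and 0.609. Of 2 proliferation genes tested, Top2a was called in D2, and of 9 immediate early and heat shock genes Fos was called in D2, while the median of those 9 was 0.06 in D0 and -0.54 in D2. Of the markers of other cells, 3 microglial, 2 monocyte, 8 T identity, 3 B identity and 1 endothelial gene were tested and none was called.

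The other cells of the same libraries held little Gzmc or Itga1. Gzmc was at most 6.17 CPM in microglia-marked cells and 2.23 in neutrophils, both in D2-3. Itga1 was at most 2.82 CPM in microglia-marked cells, where Ctrl-1 was highest, and 9.66 in neutrophils. Ltb was at 185 to 263 CPM in Ctrl neutrophils and 132 to 244 in D0 neutrophils, with the ranges overlapping, and at 141 and 174 in those of D2-1 and D2-2. Over all 9 libraries, Ltb had a UMI in 9.43% of microglia-marked cells and 31.5% of NK cells, and Top2a in 8.31% and 5.51%. Fos, at 702 to 892 CPM in microglia-marked cells of Ctrl 879 to 1095 in D0 and 961 and 905 in D2-1 and D2-2, was abundant in the controls of that class.

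All lymphoid cells together gave a larger count of calls from fewer libraries. Of the 8 libraries, Ctrl-2, D0-2, D0-3, D2-1 and D2-2 had at least 10 lymphoid cells, and the lone Ctrl library was assumed to vary like the others. The calls therefore set treated libraries against Ctrl-2 and cannot tell that library from its condition. Of 2717 genes tested by edgeR, 31 were higher (1.14%) and 30 lower (1.1%) in D0, or 61 in all (2.25%), and 35 higher (1.29%) and 28 lower (1.03%) in D2, or 63 in all (2.32%). These counts hold 3 genes of the rule in D0 (Trbc2, Cd79a and Cd79b) and 4 in D2 (those and Ccl5), from which nothing is read. By fitted fold, the largest rises in D0 were Cxcr6, Gzmc, Ramp1, Fosl2 and Tnfsf10, and in D2 Hist1h1b, Cxcr6, Gzmc, Tnfsf10 and Lmnb1. Of these only Gzmc had a UMI in Ctrl-2, so no fold is given for the rest. The order depends on those zeros, and nothing is read from it.

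Some of these genes were not low in Ctrl-1 and Ctrl-3, which the fit did not use. Cxcr6 was at 0 in the lymphoid sum of Ctrl-2 but at 182 CPM in Ctrl-1 and 72.1 in Ctrl-3, against 206 and 368 in D0-2 and D0-3. Fosl2, an AP-1 gene, was at 0 in Ctrl-2, 364 in Ctrl-1 and 180 in Ctrl-3, above the 146 and 102 CPM of D0-2 and D0-3. Tnfsf10 was at 0, 0 and 36.1 CPM in Ctrl-1, Ctrl-2 and Ctrl-3 and at 163 and 166 in D2-1 and D2-2. Hist1h1b, a histone gene of dividing cells, had 827 CPM in D2-1 but 38.3 in D2-2.

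The largest falls outside the genes of the rule came from the 1 barcode with haemoglobin. Hbb-bs, Hba-a1 and Hba-a2 had 2703, 1077 and 622 CPM in the lymphoid sum of Ctrl-2 and 0 in every other library, and every one of those UMIs was in the haemoglobin-rich barcode. Ptn, a secreted growth factor (288 CPM in Ctrl-2), was likewise in that barcode alone. Cldn5, also among the largest falls in D0, had 464 CPM in Ctrl-2. Without the barcode edgeR called 39 genes in D0 and 38 in D2.

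The 7 T cells were a mixed set. All of them also met the NK rule, by Nkg7 with Ccl5 or another of its genes, which cytotoxic T cells share. Cd8a or Cd8b1 was found in 4 cells and Cd4 in none. The genes that set T cells most apart from NK and B cells were Cd8b1, Ube2c, Cd8a, Trac, Bcl11b, Gzmk, Cd28, Cdk1, Cdc20, Birc5, Ccna2 and Ccnb2, and those of cell division were each found in 1 T cell (Ube2c, Cdc20, Birc5, Ccna2 and Ccnb2) or in 2 (Cdk1).

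The D0-2 cell had 10633 UMIs, with 30 of Cd8b1, 13 of Cd8a, 28 of Trbc1, 230 of Gzma, 248 of Ccl5 and 6 each of Mki67 and Top2a. The first of the D0-3 cells held 4 UMIs of Cd8b1, 7 of Cd3g and 2 of Gzmk. A CD8-marked cell from D2-2 held 10 UMIs of Cd8b1, 10 of Cd3d, 102 of Ccl5 and none of Gzma, and the D2-1 cell, with 1219 UMIs, held 1 UMI each of Cd8a and Cd8b1. In these 4 cells T identity genes outnumbered NK identity genes, at 13, 9, 14 and 8 of 20 against 4, 1, 3 and 2 of 16.

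The 3 T cells without Cd4 or Cd8 transcripts were of 2 kinds. The second D0-3 cell held 15 of 20 T identity genes and no NK identity gene, with 15 UMIs of Trbc1, 4 of Cd5 and 9 of Ifng, the cytokine interferon gamma. The other D2-2 cell and the D2-3 cell held 11 and 9 of 16 NK identity genes, with 4 and 1 UMIs of Ncr1, 5 and 3 of Klrb1c and 47 and 52 of Gzma, beside 6 and 9 T identity genes. The D2-2 cell thus goes against its T label, which rests on 1 UMI of Cd3d and 2 of Trbc2, while the D2-3 cell held UMIs of Cd3e, Cd3d, Cd3g and Trac beside its NK genes. Doublets were not removed, and whether these barcodes held more than 1 cell was not tested.

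Cxcr6 was found in 4 of the 7 T cells, with 2, 5, 3 and 6 UMIs, in both D0-3 cells, the D2-1 cell and the CD8-marked D2-2 cell. Itga1 and Gzmc had no UMI in any of the 7. Klf2 had 19 UMIs in the D0-2 cell and 29 in the D2-3 cell.

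The 7 B cells were mostly of mature kind. Outside the rule they were set apart by Igkc, Cd74, H2-Aa, H2-Eb1, H2-Ab1, Iglc2, Ly6d, Iglc3, Fcmr, Mzb1, Ighm and Ebf1, which are immunoglobulin chains, genes of MHC class II and B-cell regulators and receptors. Igkc reached 22513 CPM and Cd74 20944 over the 7 cells. Of 8 precursor genes only Myb was found, with 1 UMI, and the recombination genes Rag1 and Rag2 were at 0.

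The B cells of Ctrl-2 (2 cells), cells 1 and 3 of Ctrl-3 and the D0-3 cell were alike. They held 15 to 49 UMIs of Cd79a, 15 to 65 of Ighm, the IgM heavy chain, and 19 to 259 of Igkc, the kappa light chain, with 5 or 6 of the 6 genes of MHC class II. The second Ctrl-2 cell, with 11868 UMIs, held 19 of 22 B identity genes, with 16 UMIs of Ccr7, a receptor that guides lymphocytes to lymph nodes.

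The remaining B cells differed. The second Ctrl-3 cell held 1 UMI each of Cd79a and Cd79b, no immunoglobulin transcript and 64 UMIs of Lyz2, a gene of myeloid cells, which goes against its label. The D2-2 cell held no UMI of Cd79a or Pax5 but 162 of Ighm, 377 of Igkc, 29 of Mzb1 and 4 of Jchain, with 4 of the 6 plasma cell genes, and still 45 UMIs of H2-Aa. Without the second Ctrl-3 cell, the controls held 4 B cells.

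**Figure D4:**
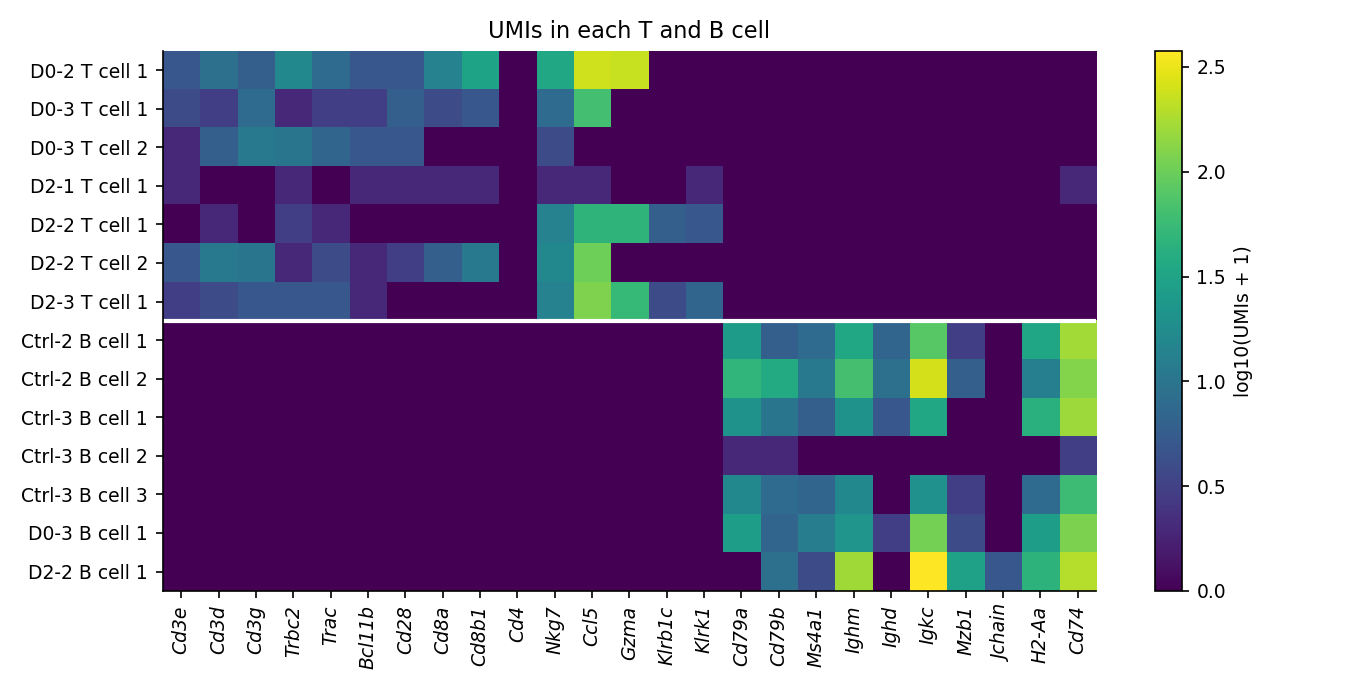
UMIs, as log10(UMIs + 1), of marker genes (columns) in each of the 7 T and 7 B cells (rows), with a white line between the lineages. Nkg7 is present in all 7 T cells, Klrb1c is present in 2 of them, both with Gzma, and the second Ctrl-3 B cell lacks immunoglobulin transcripts.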

How the data were processed

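Live CD11b+ brain cells had been captured with the 10x Genomics 3′ v3 kit, and reads were mapped to mm10 with Cell Ranger (methods: 3.1.0; per the file headers 3.0.2 for Ctrl-1, the D0 libraries, D2-1 and D2-2). The authors deposited, for each of the 9 libraries, raw UMI counts of 31053 genes in 36391 cell-called barcodes, neither normalized nor filtered further. A barcode was kept if it had between 500 and 20000 UMIs, 200 or more genes, and a mitochondrial share no higher than 10%, as in the study. No doublets were removed.

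Cells that met only the NK rule were NK, those that met the T rule without the B rule T, and those that met only the B rule B; no cell met the B rule with another. Members, lists and lineages were chosen with earlier results of these data known. Shares were compared by two-sided exact permutation tests over libraries, which are separate mice or pools, with Clopper-Pearson intervals (95%) for counting error. Sums per library went into the quasi-likelihood test of edgeR 4.0.16 under R 4.3.3, after filterByExpr and TMM, with 1 fit of the 3 groups and Benjamini-Hochberg adjustment over all genes tested, and the procedure was tested on simulated data. Separate fits for T, NK and B cells, planned for libraries with at least 10 such cells, could not be run, so NK sums of all 8 libraries were fitted instead. Named genes were those of the rule, the 12 genes outside it that set each lineage most apart (at least 200 CPM, pseudocount 20 CPM), the leading members of each fixed list, and the 5 largest rises and falls per planned comparison among called genes with at least 50 CPM and no overlap between groups. The genes called in the NK sums, the genes of the 3 NK sets and the per-cell counts of T and B cells were chosen after their values had been seen.

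Same-numbered Ctrl and D0 libraries deviated together in sums of all cells (r = 0.693, 0.262 and 0.152 across 2959 genes, which are not independent replicates) but not in NK sums (0.0158, -0.0345 and 0.0536). Among pairs with different numbers, Ctrl-3 with D0-2 (r = 0.396) and Ctrl-2 with D0-3 (0.195) also did so in sums of all cells. The rest of those pairs ran from -0.538 to -0.298. The number was used as a block in an alternative. Other alternatives were DESeq2 1.42.0, scaling by the upper quartile, all genes without the low-count filter, each library left out, D2-3 included, only the 2 groups compared, other cell minimums, the Cell Ranger version as a term and other membership rules; those on the NK sums, the haemoglobin-rich barcode, cells thinned to 2000 UMIs and pooled shares without Ctrl-2 were added after seeing the data. Gene positions came from GENCODE for GRCm38, where all 294 genes looked up were found, and promoters from RefSeq. Python 3.11.15, scipy 1.17.1 and pandas 2.3.3 were used. A few genes are not reported here.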

Additional observations from a re-analysis of the deposited data

Results flagged for a closer look

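D2-3, the library that the study left out, gave values above those of every Ctrl library in some measures that the comparisons took from the other 8. Lymphoid cells made up 1.05% of its kept cells (19 of 1808), against at most 0.737% in a Ctrl library. In its 18 NK cells Gzmc stood at 302 CPM against at most 11.1 in Ctrl, Itga1 at 234 against 22.3, Ltb at 224 against 120 and Fos at 409 against 66.9. In Ctrl-1, which was at 0 for all 4 genes, a count of 0 allows up to 273 CPM, so Itga1 and Ltb of D2-3 were not set apart from it. Top2a, also called in D2, was at 0 in D2-3 against 22.3 CPM in Ctrl-2, and S100a4, called in D0, at 468 against 481 in Ctrl-3. These values came from a library that the fits had not used. D2-3 also had the highest share of neutrophils (16.4%) and of barcodes above the UMI limit (37.3%), and the part of these in its lymphoid share was not tested.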

How the results depend on the processing

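Of 204 settings for shares and ratios of cells, 202 kept the direction. The replicate block was among them but was run only for shares of kept cells. The side of the threshold says little, since the exact test could not pass it with so few libraries. NK cells among lymphoid cells in D2 reversed without Ctrl replicate 3 (-5.76, range with each library left out -5.76 to 19.2 percentage points), and lymphoid cells per neutrophil in D2 reversed without D2 replicate 2 (0.0917, range -0.574 to 0.0917 on the log2 scale). The causes were not tested. Counts of called genes moved more, with 29 of 45 settings over 1.5 times from the reported count. For all lymphoid cells, where edgeR called 61 genes in D0 and 63 in D2, DESeq2 called 17 and 14, no filter on low counts gave 135 and 120, libraries of at least 5 cells 17 and 5, only the 2 groups compared 139 in D0, D2-3 included 15 in D2, no haemoglobin-rich barcode 39 and 38, and single libraries left out 58 to 62 and 83 to 130 (130 without D2 replicate 2). For NK sums, with 9 and 6 calls, DESeq2 gave 3 in D0, no filter 36 and 57, the 2 groups compared 2 and 3, the Cell Ranger version as a term 0 and 0, the replicate block 4 and 12, and no haemoglobin-rich barcode 4 in D0. Single libraries left out gave 0 to 10 in D0 and 0 to 19 in D2, with 0 without Ctrl replicate 2 in both, 5, 1 and 1 in D0 without D0 replicate 1, 2 and 3, and 11, 3 and 19 in D2 without Ctrl replicate 3, D2 replicate 1 and D2 replicate 2. Of the 9 and 6 NK calls, 4 and 6 remained under the block. Gzmc passed in 11 of 13 settings in each comparison (adjusted p up to 0.287 and 0.131), Itga1 in 5 and 8 of 12, and Ltb in 5 and 7 of 12. Of 312 settings for named genes, 93 lost the call and none reversed. For all lymphoid cells the version term, the block, 20 cells per library and leaving out Ctrl-2 could not be fitted.

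Depth limits these results. The Ctrl NK cells held 117351 UMIs in all, so a gene at 1 UMI there has a level known only within wide bounds. For shares of cells, 3 Ctrl libraries against 3 or 2 treated ones could not give a p under 0.1 or 0.2.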

Other observations

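Among barcodes above the limit of 20000 UMIs, 4 more would have met the rule, 2 of them NK and 2 B cells. Ighm, which lymphocytes other than B cells can transcribe without an antibody, was found in 42 of 127 NK cells at 137 CPM, while Igkc was found in 1. Trdc, a constant chain of the gamma-delta T-cell receptor, was found in 25 NK cells at 55.3 CPM and in no T cell. Cma1, a protease best known from mast cells, had a UMI in 59 NK cells, 29 of the 36 with S1pr5 and 1 of the 43 with Itga1 or Cxcr6, while the mast cell genes Cpa3 and Mcpt4 were at 0. Pdcd1, which encodes the inhibitory receptor PD-1, was found in 9 NK cells, all 9 among the 43 with Itga1 or Cxcr6.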
